A study of Homo sapiens with 4 samples.

Results

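The regions described here lie within 5 kb of 6 gene starts on hg19, and the starts were chosen from the scores themselves because the highest-scoring H3K9ac regions of the lists lie there. The starts belong to 8 genes: CEP250, GOSR2, FARSB, DPM1 and MOCS3, EIF3B, and MRPL46 and MRPS11. For DPM1 and MOCS3, and for MRPL46 and MRPS11, the rule gives 1 position for the pair. They held 25 of 39303 regions in the shRBBP4 library and 30 of 26828 in the shNT library. The cells were T98G, a human glioblastoma line, used at passage 4 and transduced with a lentivirus that carried either an shRNA against RBBP4 (shRBBP4) or a control shRNA (shNT). Histone H3 acetylated at lysine 9 (H3K9ac) was profiled by chromatin immunoprecipitation and sequencing, with 1 H3K9ac library per shRNA, and the 2 input libraries were not analysed here. With 1 library per shRNA, no difference between them has a replicate check, so values are given without tests. The sources used here give neither the shRNA sequences, nor the RBBP4 level reached, nor the number of reads behind each list. The lists hold no expression values, so the cell line was not checked against marker genes.

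H3K9ac is deposited by histone acetyltransferases such as GCN5 and PCAF on nucleosomes that flank the starts of active genes, while the start itself is commonly free of nucleosomes. RBBP4 is a histone-binding subunit of several chromatin complexes, among them the Sin3 and NuRD deacetylase complexes, the Polycomb complex PRC2 and the assembly factor CAF-1. At a divergent promoter, neighbouring genes on opposite strands are transcribed away from each other, and their starts lie on either side of a short shared stretch. The genes at these starts serve general functions of the cell. CEP250 encodes a linker protein of centrosomes. GOSR2 encodes a SNARE protein of transport between endoplasmic reticulum and Golgi. FARSB encodes the beta subunit of the cytosolic phenylalanyl-tRNA synthetase, and EIF3B a scaffold subunit of the translation initiation factor eIF3. DPM1 encodes the catalytic subunit of dolichol-phosphate mannose synthase, which feeds glycosylation. MOCS3 activates sulfur carrier proteins for molybdenum cofactor synthesis and tRNA thiolation. MRPL46 and MRPS11 encode proteins of the large and the small subunit of the mitochondrial ribosome.

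Whether these promoters are divergent was checked in RefSeq's promoter table, which is on GRCh38.p14 and held 7 of the 8 genes (not CEP250). For 6 of these 7 genes the nearest start upstream on the opposite strand lay within 1 kb. The share of all promoters in the table with such a start was not counted. Whether divergence sets these genes apart was therefore not measured. DPM1 has 2 entries, with starts 286 and 254 bases from that of MOCS3. The starts of MRPL46 and MRPS11 were 320 bases apart. GOSR2 had the noncoding gene GOSR2-DT 289 bases upstream, and FARSB the noncoding gene LOC124907985 at 341 bases. EIF3B did not match the description: its nearest opposite-strand start, that of SNX8, was 40.4 kb away. The promoters are thus divergent by this table at 4 starts, coding with coding at 2 of them, and EIF3B is not.

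The promoter windows at these starts are printed here, 5′ to 3′ along each gene, from 250 bases before to 50 bases after its RefSeq start (RefSeq, GRCh38.p14). Whether the RefSeq start and the hg19 position of the rule are the same base was not read. If they are, the windows take in stretches covered by H3K9ac regions as well as uncovered ones. At GOSR2, for example, the best shNT region lay 212 to 60 bp before the start. They lie at chr17:46922910-46923209 (GOSR2, plus strand), chr2:222656043-222656342 (FARSB, minus), chr20:50958483-50958782 (DPM1, first entry, minus), chr20:50958568-50958867 (MOCS3, plus), chr15:88467339-88467638 (MRPL46, minus), chr15:88467458-88467757 (MRPS11, plus) and chr7:2354577-2354876 (EIF3B, plus). Capitals mark matches to the motifs described after them. They are shown because the strongest shNT region of each island bordered the gap at the hg19 position of the rule. The RefSeq starts themselves were not placed on hg19.
GOSR2: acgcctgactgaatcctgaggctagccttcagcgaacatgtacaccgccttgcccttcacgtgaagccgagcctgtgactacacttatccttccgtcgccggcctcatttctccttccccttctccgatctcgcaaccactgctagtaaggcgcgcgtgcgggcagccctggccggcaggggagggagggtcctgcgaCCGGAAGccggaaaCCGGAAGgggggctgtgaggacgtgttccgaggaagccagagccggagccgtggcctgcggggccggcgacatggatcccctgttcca
FARSB: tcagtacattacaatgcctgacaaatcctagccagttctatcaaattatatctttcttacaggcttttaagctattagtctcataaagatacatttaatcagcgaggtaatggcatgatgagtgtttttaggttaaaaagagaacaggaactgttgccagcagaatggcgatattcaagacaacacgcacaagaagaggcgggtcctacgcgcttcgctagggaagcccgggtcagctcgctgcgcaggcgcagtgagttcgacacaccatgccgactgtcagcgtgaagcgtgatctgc
DPM1: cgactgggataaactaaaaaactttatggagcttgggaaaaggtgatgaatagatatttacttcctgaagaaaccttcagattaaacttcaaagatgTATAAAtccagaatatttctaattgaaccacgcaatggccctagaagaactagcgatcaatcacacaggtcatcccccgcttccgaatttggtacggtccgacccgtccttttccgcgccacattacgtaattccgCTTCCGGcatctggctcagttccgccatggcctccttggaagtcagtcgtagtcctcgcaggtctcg
MOCS3: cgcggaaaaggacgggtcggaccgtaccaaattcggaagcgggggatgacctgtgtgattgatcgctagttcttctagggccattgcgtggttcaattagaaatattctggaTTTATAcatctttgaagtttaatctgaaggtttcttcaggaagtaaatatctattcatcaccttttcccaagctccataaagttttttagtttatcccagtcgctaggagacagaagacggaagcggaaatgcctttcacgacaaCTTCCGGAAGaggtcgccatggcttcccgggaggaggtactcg
MRPL46: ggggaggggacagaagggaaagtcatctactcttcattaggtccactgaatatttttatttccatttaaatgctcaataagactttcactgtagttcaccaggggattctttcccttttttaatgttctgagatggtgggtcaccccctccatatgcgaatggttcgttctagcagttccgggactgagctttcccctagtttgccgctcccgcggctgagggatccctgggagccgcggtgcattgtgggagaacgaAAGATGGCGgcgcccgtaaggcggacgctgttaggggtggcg
MRPS11: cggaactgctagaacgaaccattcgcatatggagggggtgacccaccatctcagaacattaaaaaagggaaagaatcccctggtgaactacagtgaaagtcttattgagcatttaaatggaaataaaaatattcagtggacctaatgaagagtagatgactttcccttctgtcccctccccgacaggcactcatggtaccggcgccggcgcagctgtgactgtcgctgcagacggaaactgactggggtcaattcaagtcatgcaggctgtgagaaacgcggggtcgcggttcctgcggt
EIF3B: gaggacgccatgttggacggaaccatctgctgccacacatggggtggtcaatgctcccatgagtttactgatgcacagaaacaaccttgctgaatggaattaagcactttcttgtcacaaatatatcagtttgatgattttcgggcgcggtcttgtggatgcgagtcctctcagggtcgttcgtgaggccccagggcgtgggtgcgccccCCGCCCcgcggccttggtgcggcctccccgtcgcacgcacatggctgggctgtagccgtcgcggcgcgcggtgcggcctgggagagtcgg

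The head-to-head pairs share most of their windows. The first DPM1 window and the MOCS3 window have 215 bases in common, and the MRPL46 and MRPS11 windows 181, each read on opposite strands. Exact matches to 7 motifs were searched on both strands: the ETS core CCGGAAG, NRF1 as GCATGCGCA, YY1 as AAGATGGCG, Sp1 as GGGCGG, NFY as CCAAT, CREB as TGACGTCA and the TATA box as TATAAA. The ETS core was present in the windows of 3 of the 7 genes, GOSR2, DPM1 and MOCS3, against 12.8% of 22199 windows of protein-coding genes and 10.3% of all 35116 windows. GOSR2 held it at 2 places, from 52 to 46 and from 38 to 32 bases before its start. MOCS3 held 2 overlapping copies, on opposite strands, within the first 17 bases of the gene. The DPM1 copy lay from 17 to 11 bases before the first-entry start, outside the MOCS3 window, so the copies of the pair are separate sites.

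MRPL46 was the only one of the 7 with the YY1 letters, from base 9 to 17 of the gene. These letters occurred in 2.41% of coding and 1.75% of all windows. EIF3B was the only one with the Sp1 letters, which 56.3% of coding and 45.0% of all windows held. The TATA letters of DPM1 and MOCS3 are the same bases, read on opposite strands more than 100 bases from either start; 9.47% of coding and 11.5% of all windows held them. The windows of FARSB and MRPS11 held none of the 7 motifs. None of the 7 genes held the NRF1, NFY or CREB letters, which occurred in 1.87%, 34.7% and 2.26% of coding windows and in 1.56%, 34.6% and 1.85% of all windows. In base composition the members were not unusually rich in GC. Their GC content ran from 46.3% (DPM1, MOCS3) to 64.7% (GOSR2), and 6 of 7 lay below the coding median of 62.3%. The number of CpG dinucleotides ran from 15 to 26 and was below the coding median of 21 in 5 of 7, with EIF3B and GOSR2 above it. A match describes these letters in this window and shows nothing about binding.

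Each start sat in an island of several H3K9ac regions with bare surroundings. Every start had 3 to 6 regions in each library, and no region edge inside the windows lay more than 2779 bp from its start. The nearest region beyond 5 kb was 27319 bp away, at DPM1/MOCS3 in shRBBP4, and at the other starts and sides the distance was longer. A widening of the windows to 10 kb therefore added nothing. How often other places of the lists stand this far from their neighbours was not measured. With 17155 clusters in shRBBP4 and 12429 in shNT, joined across gaps of up to 1 kb, both lists are sparse over the genome. The islands, as spans from the first to the last region, were 1669 bp (GOSR2) to 4173 bp (CEP250) long in shRBBP4 and 1482 bp (GOSR2) to 3575 bp (EIF3B) in shNT. Joined across gaps of up to 1 kb, regions form clusters; clusters of 3 or more made up 34.2% of all in shRBBP4 and 30.6% in shNT, and those of 4 or more 18.4% and 15.7%. The cluster at the start held 4 or more regions at 4 of 6 starts in shRBBP4 and at 5 of 6 in shNT. Several regions at 1 place were not particular to the starts. The 135 other places with a region in the first 100 of either list had a median of 4 regions in each library. Their median cover was 1861 bp in shRBBP4 and 1577 bp in shNT. At the starts cover ran from 1050 to 2547 bp in shRBBP4 and from 1197 to 2640 bp in shNT. By span the clusters at the starts were long for their lists, whose medians were 748 bp in shRBBP4 and 651 bp in shNT. Spans at the other strong places were not compared. EIF3B stood in the first 4.29% by span in shRBBP4 and the first 2.19% in shNT, FARSB in the first 6.99% and 6.20%, and DPM1/MOCS3 in the first 5.99% and 8.75%. The shortest, that of GOSR2, stood in the first 22.9% in shRBBP4 and 24.0% in shNT.

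**Figure D1:**
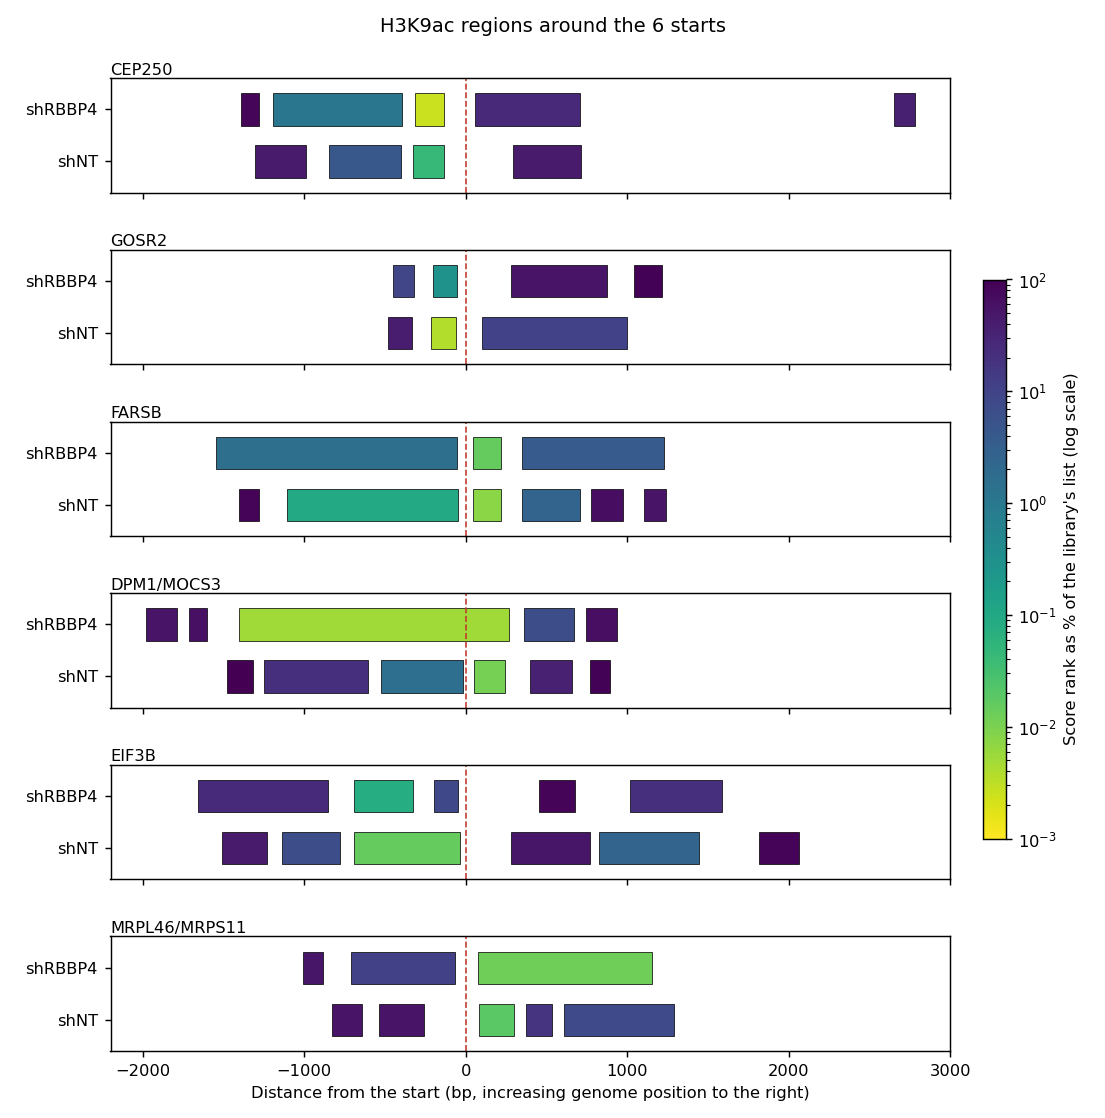
H3K9ac regions around the 6 starts. The x axis gives the distance from the start in bp, each bar is a region, the upper row of each panel is shRBBP4 and the lower shNT, and colour gives the score rank as a percentage of the library's own list on a log scale. The dashed line at the start falls inside a region only at DPM1/MOCS3 in shRBBP4.

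With the regions as deposited, the start itself was mostly uncovered, with regions on either side. A region covered the start at 1 of 6 in shRBBP4, that of DPM1 and MOCS3, and at 0 of 6 in shNT. Joining regions across gaps of up to 200 bp brought this to 4 starts in shRBBP4 and 3 in shNT. The uncovered gap around the start was 97 to 501 bp wide at the other 5 starts in shRBBP4 and 70 to 429 bp at the 6 starts in shNT. It was the widest gap of its island at 2 of these 5 starts in shRBBP4 (GOSR2, EIF3B) and at 3 of 6 in shNT (CEP250, GOSR2, MRPL46/MRPS11). At FARSB and MRPL46/MRPS11 in shRBBP4 it was the narrowest, and at FARSB and DPM1/MOCS3 in shNT it was below the median gap of its island (91 against 126 bp and 70 against 79 bp). Regions also came close to the start. Some region reached within 100 bp of the start at 6 of 6 in shRBBP4 and at 5 of 6 in shNT, the exception being CEP250. At 2 further starts the gap was narrower in shRBBP4: it was 190 bp in shRBBP4 against 429 bp in shNT at CEP250, and 146 against 339 bp at MRPL46/MRPS11. At 2 it was wider, with 329 against 162 bp at GOSR2 and 501 against 319 bp at EIF3B. At FARSB it was 97 bp in shRBBP4 and 91 bp in shNT.

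The strongest region of most islands lay directly beside the start or over it. The starts were chosen because top-scoring regions lie there, so this closeness is partly given by the choice. Islands also held only 3 to 6 regions, and the nearest on each side border the gap by definition. How often the strongest region lies so at other strong places was not measured. In shRBBP4 the best-scoring region bordered the gap at the start or covered it at 5 of 6 starts, all but EIF3B, and in shNT it bordered that gap at 6 of 6. It lay on the upstream side of the first-named gene at 4 of the 5 starts with a known strand in shRBBP4, while at DPM1/MOCS3 it covered the start, and at 5 of 5 in shNT. It follows that regions wholly downstream of the first-named gene's start ranked lower than the best one. Best regions of shRBBP4 could still reach into genes. That of DPM1/MOCS3 extended 1406 bp to the DPM1 side. That of MRPL46/MRPS11 extended to 1153 bp on the MRPS11 side, where the RefSeq starts are 320 bases apart.

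At the CEP250 start (chr20:34042985) the best shRBBP4 region, chr20:34042669-34042851, was 183 bp wide and ranked 1 in its list. The best shNT region, chr20:34042660-34042848, was 189 bp wide and ranked 12. Their left ends were 9 bp apart and their right ends 3 bp, so the same short stretch stood out in both. The next region to the left spanned 796 bp (rank 434) in shRBBP4 and 444 bp (rank 1186) in shNT. On the other side of the start a weaker region began 57 bp from it in shRBBP4 (649 bp, rank 10556) and 293 bp from it in shNT (421 bp, rank 11839). It thus reached nearer to the start in shRBBP4, while its far ends, at 705 and 713 bp, nearly coincided. A region of 131 bp at 2649 to 2779 bp was listed in shRBBP4 alone.

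At the GOSR2 start (chr17:45000486) the best region was the narrowest of the 6 in either library. It was chr17:45000285-45000434 in shRBBP4, 150 bp wide and ranked 115, and chr17:45000274-45000426 in shNT, 153 bp wide and ranked 1. Its ends differed by 11 and 8 bp between the libraries, so its place was nearly the same while its ranks lay far apart. A small region farther upstream, from 452 to 322 bp before the start in shRBBP4 and from 481 to 336 bp in shNT, ranked 3597 in shRBBP4 and 10597 in shNT. The downstream region spanned 596 bp (rank 21791) in shRBBP4 and 898 bp (rank 2786) in shNT. The small upstream region thus stood higher in the shRBBP4 list than in the shNT list, and the downstream region lower. Downstream cover was 769 bp in shRBBP4 and 898 bp in shNT.

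At the FARSB start (chr2:223520827) the best region was the same to the base in both lists, chr2:223520871-223521047. It was 177 bp wide and began 44 bp from the start on the upstream side, since FARSB is on the minus strand. It ranked 6 in shRBBP4 and 2 in shNT. The gene side of the start held a wide region of 1494 bp in shRBBP4 (rank 602) and of 1062 bp in shNT (rank 26). That shNT region was the only other one of the islands within the first 100 of a list. Farther upstream, shRBBP4 had 1 region of 876 bp from 350 to 1225 bp, where shNT had 3 separate ones of 360, 199 and 137 bp from 347 to 1240 bp. The outer bounds of that stretch were nearly equal, and shRBBP4 had no gap within it.

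At the DPM1 and MOCS3 start (chr20:49575060) a similar joining ran across the start. The best shRBBP4 region, chr20:49573654-49575328, was 1675 bp wide, ranked 2 and reached from 1406 bp on the DPM1 side to 268 bp on the MOCS3 side. The best shNT region, chr20:49575111-49575303, was 193 bp wide, ranked 3 and lay wholly inside the shRBBP4 one. It made up 11.5% of that region's length. In shNT the DPM1 side held regions of 506 bp (rank 446) and 645 bp (rank 5394), which also lie inside the wide shRBBP4 region. A weak shNT region of 160 bp (rank 25910) reached past its left end, to 1477 bp from the start. Farther out, shRBBP4 had 2 weak regions, from 1600 to 1981 bp from the start, that overlapped no shNT region. On the MOCS3 side a region of 310 bp (rank 2752) in shRBBP4 stood opposite one of 259 bp (rank 9513) in shNT.

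At the MRPL46 and MRPS11 start (chr15:89010606) the best region began at almost the same base in both lists, 79 bp from the start in shRBBP4 and 81 bp in shNT. It was chr15:89010685-89011759 in shRBBP4, 1075 bp wide, and chr15:89010687-89010903 in shNT, 217 bp wide, and it ranked 5 in both. The shRBBP4 region overlapped all 3 shNT regions on the MRPS11 side. The other 2 of these were 159 bp (rank 4748) and 683 bp (rank 2046) wide and reached 1290 bp from the start in shNT, against 1153 bp in shRBBP4. On the MRPL46 side shRBBP4 had a region of 646 bp (rank 4488) whose near end was 68 bp from the start, and the nearest shNT region, of 276 bp (rank 14663), ended 259 bp from it.

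EIF3B (start chr7:2394474) had the reverse of the arrangement at DPM1/MOCS3 and at MRPL46/MRPS11. Here the best shNT region, chr7:2393783-2394435, was the wider, at 653 bp and rank 4. In shRBBP4 the same stretch held 2 regions, the best of them chr7:2393780-2394145, 366 bp wide and ranked 32, and another of 152 bp at rank 3175 that ended 47 bp before the start. The outer ends of the stretch differed by 3 and 8 bp, so the libraries differed by a gap of 130 bp within it. The farther upstream side held 1 region of 807 bp (rank 9872) in shRBBP4 and 2 of 354 bp (rank 1849) and 280 bp (rank 11428) in shNT. Downstream, shRBBP4 had regions of 224 bp (rank 35255) and 565 bp (rank 8028). In shNT the downstream regions were 491 bp (rank 14292), 616 bp (rank 698) and 246 bp (rank 24328). Downstream cover was 789 bp in shRBBP4 and 1353 bp in shNT.

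At the 4 divergent starts the strongest shNT region was shorter than the spacing between the opposite starts. The far end of the best region lay 201 bp upstream in shRBBP4 and 212 bp in shNT at GOSR2, where the spacing in RefSeq was 289 bases. At FARSB it lay at 220 bp in both, with a spacing of 341. At MRPL46 it lay at 1153 bp in shRBBP4 and 297 bp in shNT, with a spacing of 320. At DPM1 it lay at 268 bp in shRBBP4 and 243 bp in shNT, with a spacing of 286 or 254 by entry. In shNT the far end thus stayed below the spacing at all 4, and in shRBBP4 it passed it at MRPL46. The 2 DPM1 spacings start from different bases, while the 268 bp are counted from the 1 position of the rule. Which entry that position matches was not read. The far end at DPM1 in shRBBP4 was below the spacing if it is the first and above it if it is the second. The spacings are from GRCh38.p14 and the region ends from hg19, and the rule gives 1 hg19 start for each pair, so the hg19 place of the second start was not read. Whether the position of the rule and the RefSeq start are the same base was not read either. The order of far end and spacing in shNT is least sure where they are close, at DPM1 (243 against 254) and MRPL46 (297 against 320).

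**Figure D2:**
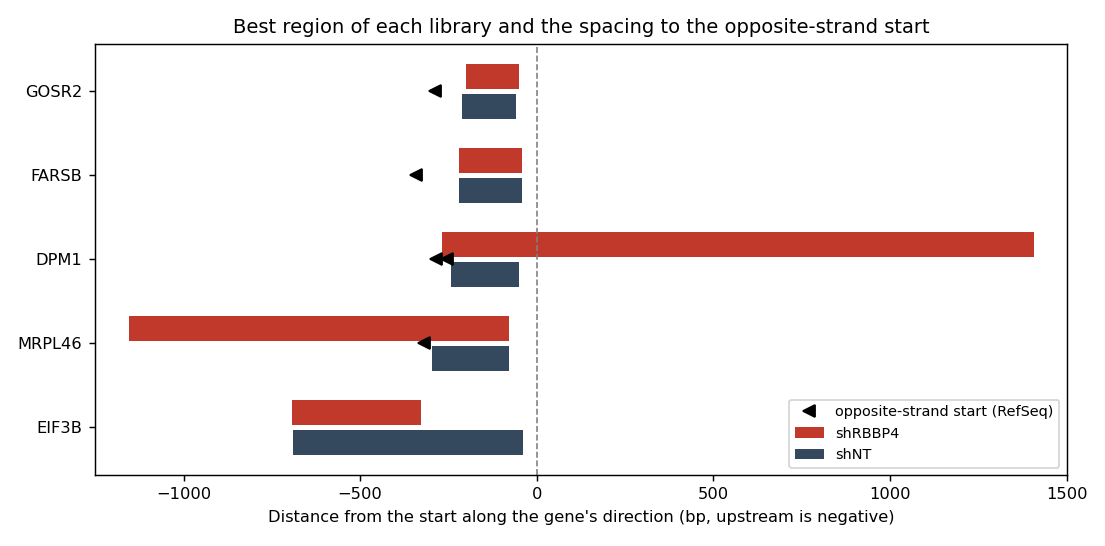
Place of the best region along the direction of the named gene, in bp from its start with upstream negative. Bars are the best region of shRBBP4 (upper, red) and shNT (lower, dark). Triangles give the distance to the nearest opposite-strand start within 1 kb in RefSeq's table (2 entries at DPM1, none at EIF3B). Both DPM1 triangles are drawn from the same zero, although the 2 entries have different starts. In shNT the bars end short of the triangles, at 212, 220, 243 and 297 bp from the start. Bars are from hg19 and triangles from GRCh38.p14, and whether both are counted from the same base was not read.

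The ranks of the best regions are those that chose the starts, and are given as a description. In shRBBP4 they were 1 (CEP250), 2 (DPM1/MOCS3), 5 (MRPL46/MRPS11), 6 (FARSB), 32 (EIF3B) and 115 (GOSR2) of 39303. In shNT they were 1 (GOSR2), 2 (FARSB), 3 (DPM1/MOCS3), 4 (EIF3B), 5 (MRPL46/MRPS11) and 12 (CEP250) of 26828. The starts thus held 3 of the first 5 regions of shRBBP4 and all of the first 5 of shNT. The best region stood nearer to the top in shRBBP4 at 2 starts (CEP250, DPM1/MOCS3), lower at 3 (GOSR2, FARSB, EIF3B) and at the same rank at MRPL46/MRPS11. The scale of the score is not stated, and ranks from lists of unequal length do not show a change in signal. Just outside the choice, regions ranked 3 and 4 in shRBBP4 were chr17:37356367-37357821 and chr15:30917687-30918180, and that ranked 6 in shNT was chr17:42976858-42977024.

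**Figure D3:**
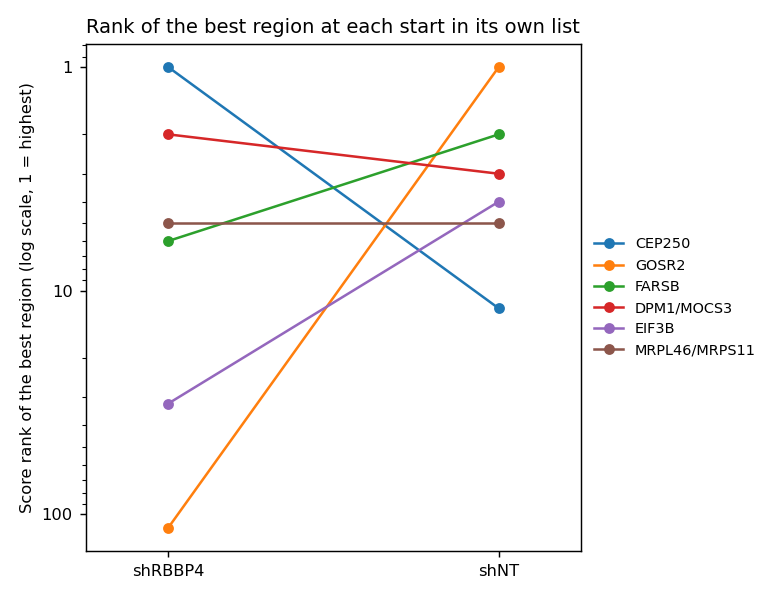
Score rank of the best region at each of the 6 starts, shRBBP4 on the left and shNT on the right, with rank 1 at the top of a log axis and 1 line per start. The widest difference is that of GOSR2, at rank 115 in shRBBP4 and rank 1 in shNT.

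The best regions ran from narrow to among the widest of their lists. The best regions of CEP250, GOSR2 and FARSB were narrower than the list's median width in both libraries, which was 213 bp in shRBBP4 and 210 bp in shNT, and that of DPM1/MOCS3 was so in shNT. By width, the GOSR2 region ranked 27731 in shRBBP4 and 18699 in shNT. At the other end, the shRBBP4 region of DPM1/MOCS3 ranked 139 by width and that of MRPL46/MRPS11 797, in the first 0.354% and 2.03% of the list. The widest best region in shNT, that of EIF3B, ranked 2083, in the first 7.76%. Below the median were 3 of 6 best regions in shRBBP4 and 4 of 6 in shNT, a share near that of any list around its median. The best region was also the widest of its island at 2 starts in shRBBP4 (DPM1/MOCS3, MRPL46/MRPS11) and at 1 in shNT (EIF3B). Narrow regions are also frequent among the other strong ones: outside the starts, 50 of 95 regions of the first 100 of shRBBP4 and 50 of 93 of shNT were below the list's median width. In this the starts resemble other strong places.

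**Figure D4:**
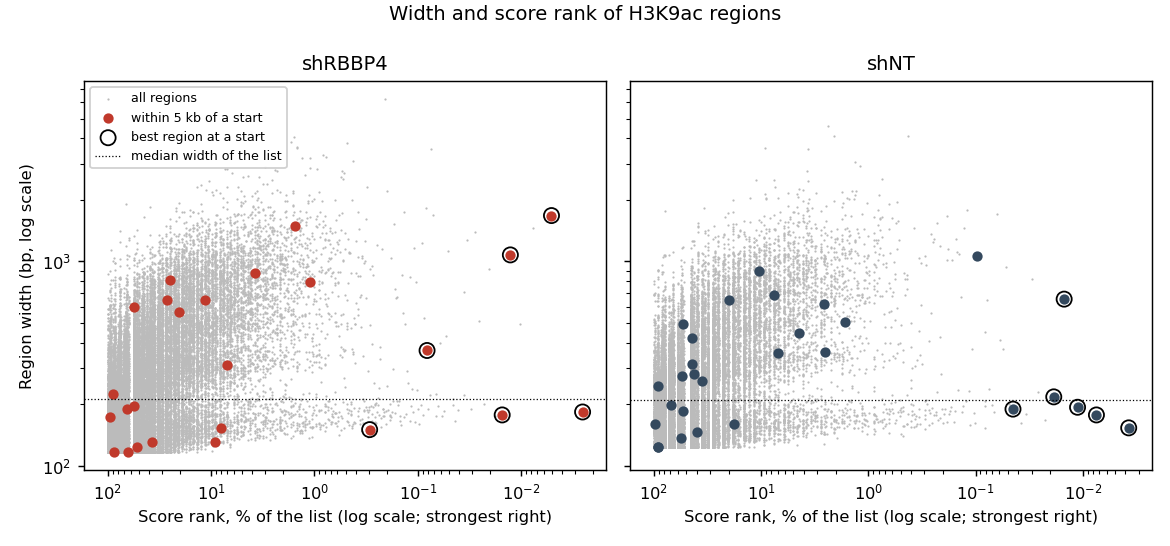
Region width in bp against score rank as a percentage of the list, both on log axes, for shRBBP4 (left) and shNT (right). Grey points are all regions, coloured points the 25 and 30 regions within 5 kb of the starts, circles the best region of each start and the dotted line the list's median width. Circles lie at the strong end, 3 of 6 below the line in shRBBP4 and 4 of 6 in shNT.

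The best regions of both libraries overlapped at 6 of 6 starts. Their ends both agreed within 25 bp at CEP250, GOSR2 and FARSB. Over the whole lists, such a match was found for 4.77% of shRBBP4 and 6.99% of shNT regions. Among the other regions of the first 100 it was found for 47 of 95 in shRBBP4 and 51 of 93 in shNT, so agreement of this kind was frequent among strong regions elsewhere. Of all regions at the starts, 20 of 25 in shRBBP4 (80.0%, exact 95% interval 59.3 to 93.2, counting error only) and 29 of 30 in shNT (96.7%, 82.8 to 99.9) overlapped a region of the other library. In the whole lists 50.04% of shRBBP4 and 77.0% of shNT regions did. Among the other regions of the first 100 the overlap was 94 of 95 in shRBBP4 and 93 of 93 in shNT. The 6 regions without an overlap were all at the outer ends of their islands, 5 in shRBBP4 (at CEP250, GOSR2 and MRPL46/MRPS11, and 2 at DPM1/MOCS3) and 1 in shNT (at EIF3B).

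The surplus of shRBBP4 regions in the whole lists was not visible in the number of regions at the starts. The ratio of shRBBP4 to shNT regions there was 0.833 (25 against 30; exact 95% interval 0.470 to 1.47, counting error only), against 1.46 in the whole lists, which the interval just includes. The interval treats regions as independent, although they lie in 6 islands where 1 long region can stand for several short ones. Joined across gaps of up to 200 bp, the counts were 10 and 10. Covered length was 11.9 kb in shRBBP4 and 10.7 kb in shNT, a ratio of 1.12, against 1.51 in the whole lists. The 25 shRBBP4 regions thus covered more than the 30 shNT regions, with more covered length at 4 starts and less at GOSR2 (1050 against 1197 bp) and EIF3B (2114 against 2640 bp). Around 135 other places with a region in the first 100 of either list, a comparison chosen after seeing the data, the ratio was 1.08 for regions (614 against 568; 0.963 to 1.21) and 1.14 for covered length. The covered-length ratio at the starts ran from 0.801 (EIF3B) to 1.37 (CEP250), and at those other places the quartiles were 0.937 and 1.47. Depth is unknown, and its part in these differences was not tested.

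CEP250 and DPM1/MOCS3 both lie on chromosome 20, which had 1739 of 39303 regions in shRBBP4 and 1014 of 26828 in shNT. It held 14 of the first 100 regions of shRBBP4 and 11 of shNT, and 4 of the first 10 of shRBBP4 and 3 of shNT. These counts include the starts chosen by score. CEP250 and DPM1/MOCS3 are both among the first 10 of shRBBP4, and DPM1/MOCS3 is among the first 10 of shNT.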

How the data were processed

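H3K9ac ChIP-seq of T98G cells was analysed from the authors' 2 deposited lists of regions, 1 per library, each with chromosome, start, end, name and a score. The authors' score has no stated scale and served only for ranks inside each list; tied regions share the best rank. Per the file headers, macs2 and PE appear in the track lines. Per the submitters' processing notes, SICER, Picard, BWA and bcl2fastq 2.15.0 were used, on GRCh37 or hg19, with no roles stated. The sources used here do not say which caller made the lists, at what threshold, or whether the inputs entered. The number of reads is unknown.

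Starts were counted from 1. A region belonged to a start when any base lay within 5 kb of the hg19 position in the rule. The gap is the uncovered stretch between the nearest regions on either side of the start. Overlap means at least 1 bp. Intervals are exact (Clopper-Pearson, or its conditional form for ratios) at 95% and cover counting error only. Promoter sequences and strands come from RefSeq tables on GRCh38.p14, and no position was converted between builds. All 8 genes of the rule are named, with the best and neighbouring regions of each start. The members, motifs and comparisons were chosen with earlier results of these data known. Alternatives changed the window, the score limit, joining, overlap, ranking and edge limits. The overlap and joining functions were tested on simulated lists. Software was matplotlib 3.10.9, scipy 1.17.1, pandas 2.3.3 and numpy 2.4.6 under Python 3.11.15.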

Additional observations from a re-analysis of the deposited data

How the results depend on the processing

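No paired analysis was possible because each shRNA has 1 library. Values that kept to within 1.5 times are not repeated: region number and covered length with windows of 2 or 10 kb and with the higher-scoring 50% of each list, covered length after joining, best ranks in lists of equal length, among clusters and within 1 kb (12 of 12 each), and the matching edges at limits of 10 and 50 bp, which gave 2 and 3 starts. The median gap, 168 bp in shRBBP4 and 240.5 bp in shNT, was 146 and 162 bp with the higher-scoring 50%. Those medians leave out GOSR2 in shRBBP4 and MRPL46/MRPS11 in shNT, which kept regions on 1 side only. At EIF3B the nearest downstream region then began 1019 bp from the start in shRBBP4 (455 in the full list) and 828 bp in shNT (281). The gap thus depended on the score limit. Joining across gaps of up to 200 bp, fewer regions by construction, left 10 regions in shRBBP4 and 10 in shNT, and the starts covered then numbered 4 in shRBBP4 and 3 in shNT. Counting a region within 100 bp of the start as cover gave 6 starts in shRBBP4 and 5 in shNT. Under a reciprocal overlap of 50%, the shared share was 52.0% of shRBBP4 and 43.3% of shNT regions. It was 94.1% and 100% for the higher-scoring 50% of each list. By its width, the best-scoring region stood in the first 1% of the list at 1 start in shRBBP4 (DPM1/MOCS3) and 0 in shNT. By score it stood there at 6 and 6, but scores chose the starts. The widest region of each island was not used for this count. At FARSB in shRBBP4 the widest region, of 1494 bp, stood in the first 0.542% by width. No replicate could be left out. Unknown depth and caller settings limit every comparison between the lists.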

Other observations

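Of the first 10 regions of each list, 6 in shRBBP4 and 5 in shNT lay away from the 6 starts. The place at chr20:30697344-30697518 was among the first 10 of both, with a region of 175 bp at rank 7 in shRBBP4 and one of 815 bp, chr20:30697343-30698157, at rank 8 in shNT. The left ends of these differed by 1 bp, and the wide region was that of shNT. The region chr2:55459538-55459738 ranked 9 in shRBBP4, and its best shNT counterpart ranked 11. Among the first 10, the widest difference in rank was at chr15:30917687-30918180, rank 4 in shRBBP4, whose best overlapping shNT region ranked 10469. No gene was assigned to these places.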
